A study of Mus musculus with 24 samples.

Results

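The genes of adult haemoglobin and the erythroid haem enzyme Alas2 were followed as a measure of blood content in whole mouse ears. They are 5 of the 51912 genes in the count table: the beta globin pair Hbb-bs and Hbb-bt, the alpha globin pair Hba-a1 and Hba-a2, and Alas2. They were chosen by gene symbol through their Ensembl identifiers, not by their values, and all 5 passed the filter on low counts that left 17287 genes for testing. The polyA RNA came from ears of C57BL/6 mice in 24 samples of 4 groups, with 6 samples each: CARD14E138A mutants at 1 month, Wt mice at 1 month, CARD14E138A mutants at day 5 and Wt mice at day 5. All 4 groups had been injected with tamoxifen on 3 consecutive days, and the time was counted from the first injection. In the mutants tamoxifen acts through CreERT2 on a Card14LSL-E138A knock-in allele, so that Card14 with the psoriasis-associated E138A change is made from its own locus. The promoter that drives CreERT2, the age and sex of the mice, and whether each sample is a separate animal are unstated, so the p-values cover the spread of the samples, which may be technical in part. The labels name the Wt mice by genotype only, and say nothing on whether they also carry CreERT2.

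Haemoglobin is a tetramer of alpha and beta globin chains, each holding a haem group that binds oxygen. Red cell precursors in the marrow make both chains in balance and make the haem through Alas2, the erythroid form of the first and rate-limiting enzyme of haem synthesis. Young red cells lose their nucleus but keep globin RNA for a time, so that globin RNA in a solid tissue is commonly taken to mark blood in its vessels. Alpha globin has also been described in the endothelium of small arteries in mice. In bulk samples fewer red cells and less globin RNA per red cell cannot be told apart.

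Both adult beta genes lie on chromosome 7 and both adult alpha genes on chromosome 11, each pair as near-identical copies, while Alas2 is X-linked (all coordinates GRCm38, 1-based). Hbb-bs (ENSMUSG00000052305) spans chr7:103826534-103828096 on the minus strand and Hbb-bt (ENSMUSG00000073940) chr7:103812524-103813996 on the minus strand. Hba-a1 (ENSMUSG00000069919) spans chr11:32283511-32284465 and Hba-a2 (ENSMUSG00000069917) chr11:32296489-32297298, both on the plus strand. Alas2 (ENSMUSG00000025270) spans chrX:150547375-150570638 on the plus strand. Since the members moved together over time, the 250 bases before the RefSeq start of 4 of them (GRCm38.p6) are shown here from 5′ to 3′ on the gene's own strand. Capitals mark exact matches, on either strand, to GATAA (bound by GATA factors), CACCC (bound by Krüppel-like factors), CCAAT and the TATA element ATATAA. Where 2 matches adjoin or overlap, the capitals run on. The windows are chr7:103827929-103828178 (minus), chr7:103813924-103814173 (minus), chr11:32283422-32283671 (plus) and chrX:150547167-150547416 (plus). They run into the gene spans given above, which are from GENCODE and begin further upstream than the RefSeq starts.
Hbb-bs: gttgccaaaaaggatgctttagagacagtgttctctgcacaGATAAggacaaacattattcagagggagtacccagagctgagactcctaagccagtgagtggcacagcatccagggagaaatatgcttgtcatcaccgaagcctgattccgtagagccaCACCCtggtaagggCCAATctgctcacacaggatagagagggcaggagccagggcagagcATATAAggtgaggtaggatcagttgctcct
Hbb-bt: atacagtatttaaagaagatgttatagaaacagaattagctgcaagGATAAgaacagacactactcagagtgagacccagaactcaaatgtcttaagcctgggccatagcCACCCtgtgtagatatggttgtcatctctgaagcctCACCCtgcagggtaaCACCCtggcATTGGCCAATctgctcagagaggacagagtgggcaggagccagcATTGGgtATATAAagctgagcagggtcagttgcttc
Hba-a1: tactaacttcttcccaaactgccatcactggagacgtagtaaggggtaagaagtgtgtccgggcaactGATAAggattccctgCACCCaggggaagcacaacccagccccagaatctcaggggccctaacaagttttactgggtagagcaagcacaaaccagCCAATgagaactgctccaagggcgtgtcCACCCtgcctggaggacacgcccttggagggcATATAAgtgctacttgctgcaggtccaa
Alas2: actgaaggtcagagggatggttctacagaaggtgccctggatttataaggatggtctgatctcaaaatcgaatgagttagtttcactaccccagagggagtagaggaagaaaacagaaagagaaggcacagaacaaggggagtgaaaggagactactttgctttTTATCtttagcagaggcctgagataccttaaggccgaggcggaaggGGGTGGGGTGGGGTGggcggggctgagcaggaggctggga
Each globin window held all 4 motifs, with the TATA element starting 30 bases before the start in Hbb-bs, 29 in Hbb-bt and 28 in Hba-a1. The Alas2 window held GATAA 1 time and CACCC 3 times, both on the minus strand, and had no match to CCAAT or ATATAA. Among 32851 mouse promoter windows of this length, GATAA was found in 22.6%, CACCC in 52%, CCAAT in 33.8% and ATATAA in 9.1%, so single matches to the first 3 are common. The Hba-a2 window (chr11:32296242-32296491, plus) shared an unbroken run of 247 bases with that of Hba-a1 and is not repeated. The beta windows were 70.5% identical to each other over their alignment. A match is a description of the letters and not a measured binding site.

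The copies of a pair share much of their transcripts and nearly all of their coding sequence, which limits what the single genes show. The alpha coding sequences (429 bases) differ at 1 base, C381T from Hba-a1 to Hba-a2, and the beta coding sequences (444 bases) at 1 base, C417T from Hbb-bs to Hbb-bt. Positions count from the A of the start codon, and neither change alters the protein. The 41 coding bases around each difference are shown, with the differing base in capitals.
Hba-a1: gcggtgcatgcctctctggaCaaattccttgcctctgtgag
Hba-a2: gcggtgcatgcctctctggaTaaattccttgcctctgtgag
Hbb-bs: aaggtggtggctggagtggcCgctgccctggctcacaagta
Hbb-bt: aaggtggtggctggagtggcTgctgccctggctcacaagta
Of all 75-base stretches of the transcripts, 62.2% of those of Hba-a1 occur in Hba-a2 and 81% of those of Hba-a2 in Hba-a1. For Hbb-bs 64.3% occur in Hbb-bt, and 56.6% of those of Hbb-bt in Hbb-bs. RSEM divides reads that fit several copies by estimation, so the split within a pair is uncertain, and each pair is also given as a sum.

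All 5 genes stood far higher at 1 month than at day 5, in mutants and in Wt ears alike, and no library of either time overlapped with the other time in any of them. The share of all tested genes without such an overlap was not counted. The values that follow are CPM, counts per 1000000 counts of the library after TMM scaling, as the lowest, the median and the highest of the 6 libraries of a group.

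Hbb-bs, the main adult beta globin of this strain, lay at 48.6, 156 and 353 CPM in mutants and at 106, 284 and 344 CPM in Wt ears of 1 month. At day 5 it lay at 0.119, 0.864 and 10.6 CPM in mutants and at 0.261, 0.634 and 1.62 CPM in Wt ears. The counts behind the day 5 values were small, 2 to 177 in mutants and 4 to 28 in Wt libraries, and the lowest 1-month value of either genotype lay above every day 5 value. The log2 fold change of 1 month against day 5 was 6.18 ± 0.75 (SE) in mutants (edgeR, p adjusted by Benjamini-Hochberg = 1.8e-06). In Wt ears it was 8.40 ± 0.85 (adjusted p = 7.93e-07), about 338-fold. Mutant replicate 6 of day 5 held the 10.6 CPM, and without it the rise in mutants was 7.98.

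Hbb-bt, the second adult beta gene, was the scarcer copy, at 8.29, 25.5 and 54.8 CPM in mutants and 14.4, 45.4 and 54.3 CPM in Wt ears of 1 month. At day 5 it lay at 0, 0.111 and 1.38 CPM in mutants and 0, 0.118 and 0.131 CPM in Wt ears, which is 2 counts in most libraries. Its rise was 6.55 ± 0.66 on the log2 scale in mutants (adjusted p = 1.34e-07) and 8.57 ± 0.76 in Wt ears (adjusted p = 8.99e-08). Without mutant replicate 6 of day 5, which held the 1.38 CPM, the rise in mutants was 8.50. Folds of this size rest on day 5 levels close to no read and are rough.

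Hba-a1, a twin alpha gene, lay at 27.4, 88.6 and 168 CPM in mutants and 64.9, 162 and 210 CPM in Wt ears of 1 month. At day 5 it was the member with most reads in Wt ears, at 0.521, 1.68 and 5.47 CPM in mutants and 2.49, 3.16 and 5.22 CPM in Wt ears. Its rise was 5.47 ± 0.49 on the log2 scale in mutants (adjusted p = 2.6e-08) and 5.50 ± 0.49 in Wt ears (adjusted p = 8.99e-08), 44.2-fold and 45.4-fold. Without mutant replicate 6 of day 5 the rise in mutants was 6.02.

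Hba-a2, its twin, lay at 25.7, 72.5 and 166 CPM in mutants and 49.0, 122 and 201 CPM in Wt ears of 1 month. At day 5 it lay at 0, 0.477 and 7.40 CPM in mutants and 0, 0.834 and 1.11 CPM in Wt ears, with 2 libraries of each genotype at 0. It rose by 5.74 ± 0.84 on the log2 scale in mutants (adjusted p = 2.12e-05) and by 7.59 ± 0.93 in Wt ears (adjusted p = 1.52e-05), and without mutant replicate 6 of day 5 by 7.84 in mutants. In the 4 day 5 libraries without a Hba-a2 count all alpha reads were assigned to Hba-a1, so the larger fold of Hba-a2 in Wt ears cannot be told apart from the division of reads between the twins.

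Alas2, which has no near-identical copy among the members, lay at 2.01, 5.71 and 9.32 CPM in mutants and 4.07, 8.16 and 11.4 CPM in Wt ears of 1 month. At day 5 it lay at 0.534, 0.767 and 1.08 CPM in mutants and 1.18, 1.48 and 1.85 CPM in Wt ears. It rose by 2.85 ± 0.33 on the log2 scale in mutants (adjusted p = 7.75e-07) and by 2.42 ± 0.31 in Wt ears (adjusted p = 2.46e-05), 7.2-fold and 5.33-fold. The rise was the smallest of the 5 members in both genotypes.

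**Figure D1:**
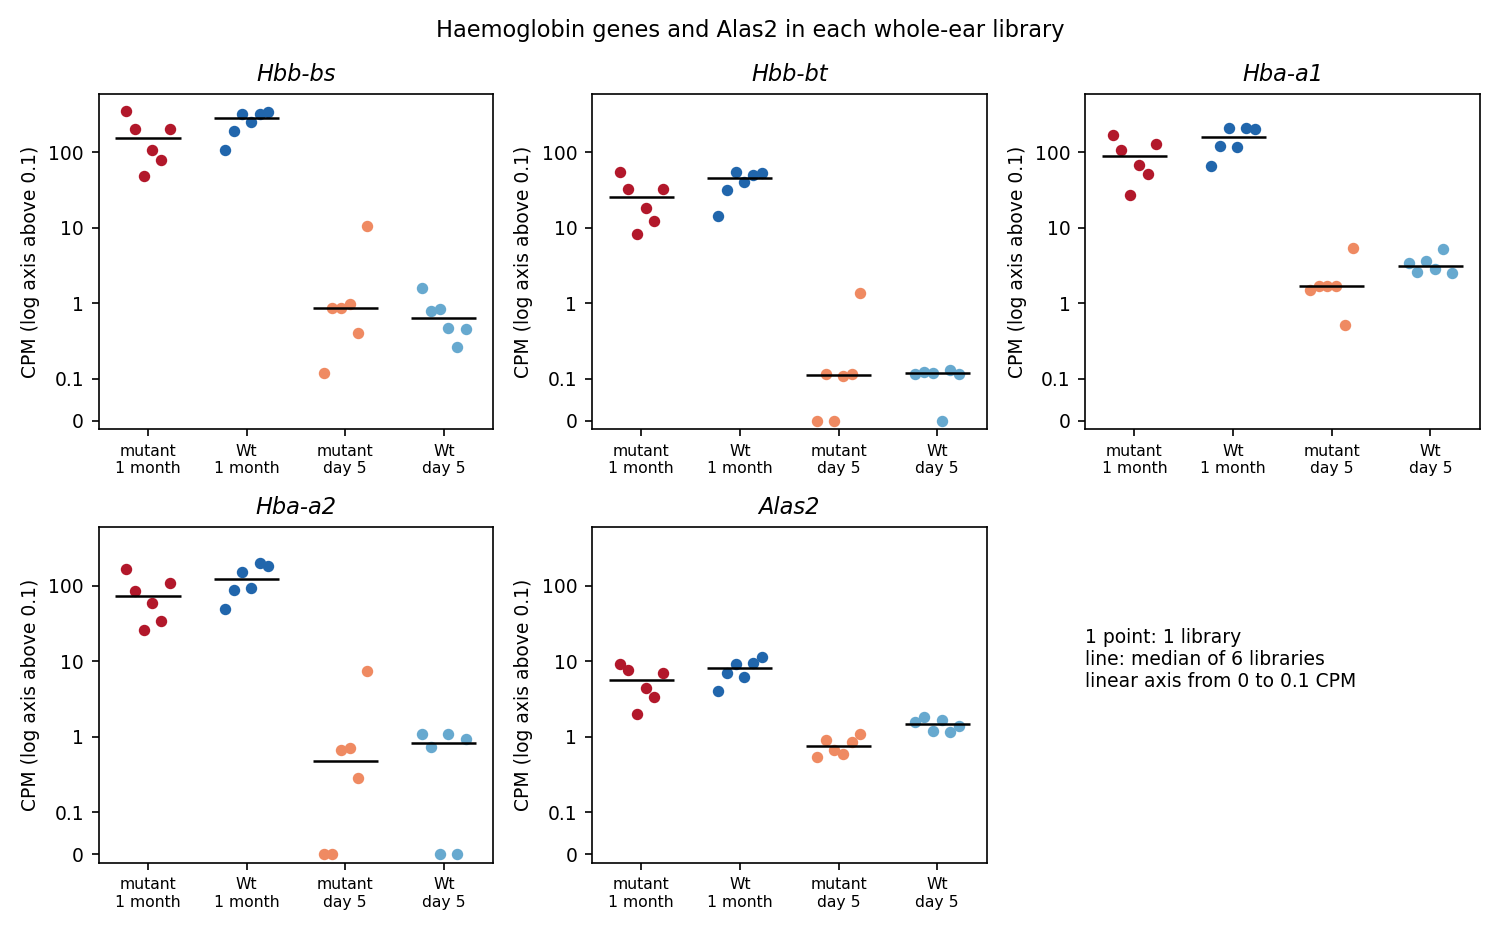
CPM of each member in each of the 24 whole-ear libraries (points), with the median of the 6 libraries of a group (line). The axis is linear from 0 to 0.1 and logarithmic above; all 1-month values lie above all day 5 values of the same genotype, and in the globin genes 1 mutant library of day 5 stands above the other 5.

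Called members thus numbered 5 of 5, all higher, in both time comparisons. In mutants 19.4% of all tested genes were called between the times and 11.2% were called higher. In Wt ears 9.09% were called and 6.28% were called higher. Ranked among the 17287 tested genes by the size of the rise in Wt ears, Hbb-bt was 4, Hbb-bs 6, Hba-a2 8, Hba-a1 25 and Alas2 140. By the size of the rise in mutants they were 58, 64, 70, 76 and 147, with Hbb-bt first, then Hbb-bs, Hba-a2, Hba-a1 and Alas2. The median change over the 4 globins was 5.96 on the log2 scale in mutants and 7.99 in Wt ears, beside -0.02 and -0.03 over all tested genes. With copies summed, beta globin rose by 6.23 ± 0.76 in mutants and 8.43 ± 0.86 in Wt ears, and alpha globin by 5.58 ± 0.59 in mutants and 6.12 ± 0.60 in Wt ears (adjusted p at most 1.9e-06 in all 4). Without mutant replicate 6 of day 5 the rise in mutants was 8.05 ± 0.61 for beta and 6.61 ± 0.50 for alpha globin.

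The libraries of the 2 times also differed in other ways. Total counts were 20608274 to 23022149 in mutant and 19255028 to 23904976 in Wt libraries of 1 month, against 16803680 to 18852963 in mutant and 15661515 to 16998900 in Wt libraries of day 5. The ribosomal protein gene Rpl12 averaged 573 ± 210 CPM in mutant and 543 ± 136 CPM in Wt ears of 1 month, against 46.9 ± 5.61 and 26.8 ± 2.09 CPM at day 5 (SD, n = 6 each). Of the 1572 genes called in Wt ears, 7.82% were pseudogenes, against 3.78% of the genes tested. Time since tamoxifen, depth and any difference in library handling go together, so their parts in the rise of the globins cannot be told apart, and the labels say nothing of a separate treatment of either time.

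**Figure D2:**
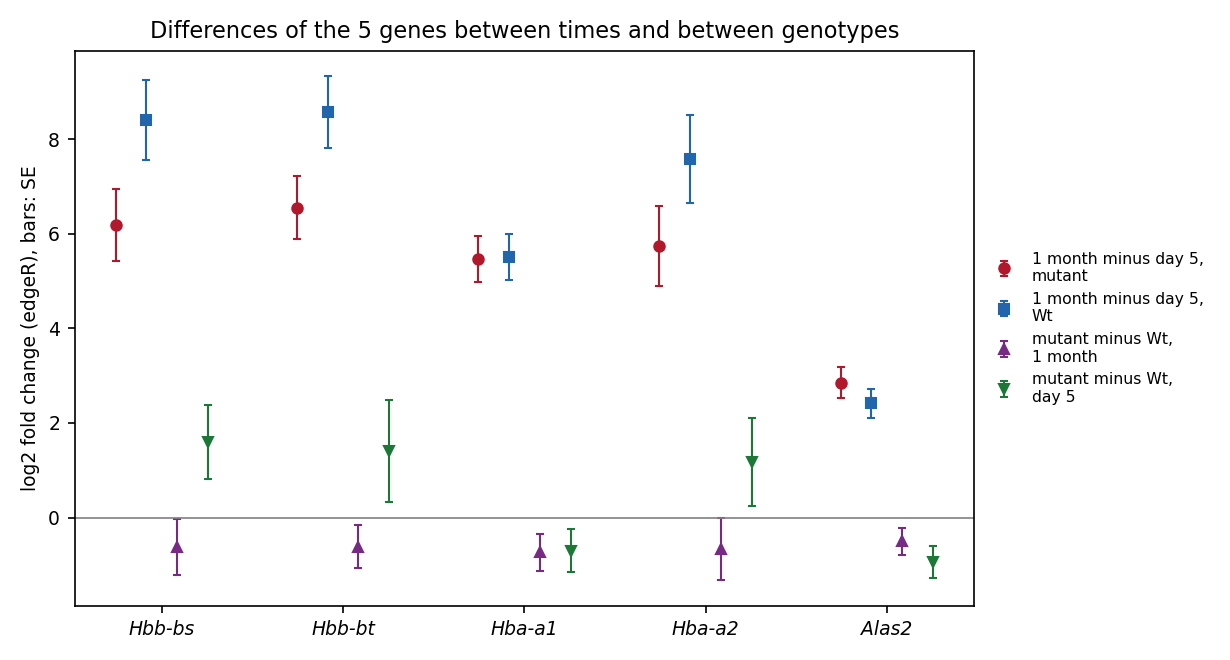
Log2 fold changes of the 5 members with their standard errors from edgeR, for 1 month against day 5 in mutants (circles) and Wt ears (squares), and for mutants against Wt ears at 1 month (triangles pointing up) and day 5 (pointing down). The time differences run from 2.42 to 8.57, while the genotype differences lie on both sides of 0.

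Per length of transcript, the order of the levels differed between the times in Wt ears. At 1 month Hbb-bs was highest, at 265 ± 178 CPM per kb in mutants and 406 ± 146 in Wt ears (SD, n = 6 each), and it stood above the other members in all 12 libraries. Next came the alpha twins, Hba-a2 at 144 ± 94.9 CPM per kb in mutants and 230 ± 107 in Wt ears, and Hba-a1 at 132 ± 75.2 CPM per kb in mutants and 220 ± 87.0 in Wt ears. These twins differed by less than their spread. Hbb-bt followed at 37.8 ± 24.5 CPM per kb in mutants and 57.9 ± 22.1 in Wt ears, and Alas2 was lowest at 2.76 ± 1.38 CPM per kb in mutants and 3.89 ± 1.29 in Wt ears. At day 5 in Wt ears Hba-a1 led with 4.84 ± 1.46 CPM per kb and was the highest member in all 6 libraries. Hbb-bs stood at 1.18 ± 0.77, Hba-a2 at 1.16 ± 0.93 and Alas2 at 0.73 ± 0.13 CPM per kb, closer together than their spread, and Hbb-bt at 0.14 ± 0.07 CPM per kb. In mutants of day 5 Hbb-bs had the highest mean, at 3.68 ± 6.52 CPM per kb, before Hba-a1 at 2.99 ± 2.46 and Hba-a2 at 2.72 ± 5.24, which replicate 6 carries with 16.9, 7.83 and 13.4 CPM per kb; in the other 5 mutant libraries Hba-a1 was the highest member.

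The balance between alpha and beta globin was tight at 1 month and wide at day 5. There were 0.82, 0.934 and 1.01 alpha counts per beta count (lowest, median and highest library) in mutants and 0.725, 0.954 and 1.11 in Wt ears of 1 month. At day 5 there were 1.07, 1.98 and 12.5 in mutants and 2.63, 4.86 and 13.3 in Wt ears. All 6 Wt libraries of day 5 lay above all 6 of 1 month, and the beta counts behind them were 6 to 30 per library. Within the beta pair, Hbb-bt took 13.3% to 14.6% of the counts in mutants and 12% to 14.6% in Wt ears of 1 month. Within the alpha pair, Hba-a1 took 50.2% to 60.6% in mutants and 51.1% to 58.2% in Wt ears of 1 month, against 42.5% to 100% in mutants and 72.1% to 100% in Wt ears of day 5. Alas2 gave 12.6, 17.8 and 18.7 counts per 1000 globin counts in mutants and 12.1, 13.7 and 17.4 in Wt ears of 1 month. At day 5 it gave 43.5, 270 and 652 in mutants and 209, 304 and 435 in Wt ears, so there were fewer Alas2 counts per globin count at 1 month in every library than in any of day 5. These ratios describe the same libraries as the tests above and were not tested.

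**Figure D3:**
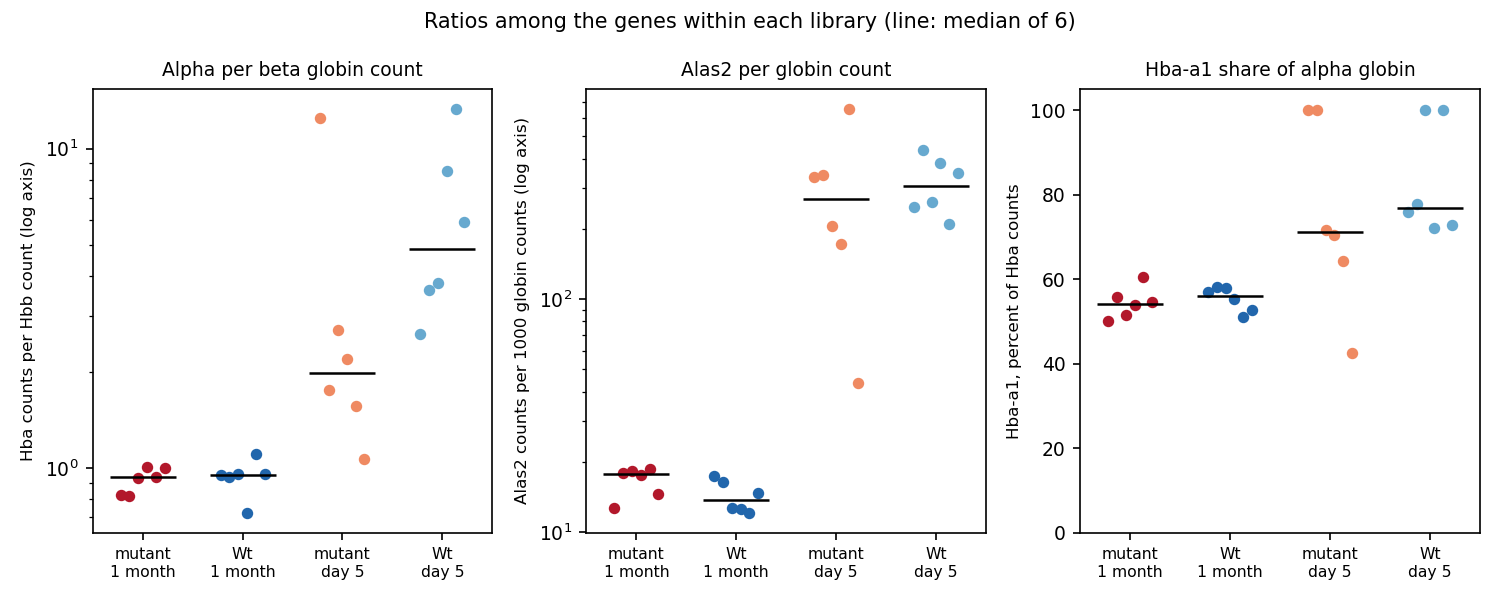
Alpha per beta globin counts (left, log axis), Alas2 counts per 1000 globin counts (centre, log axis) and the share of Hba-a1 in the alpha counts (right) in each library, with the median of each group as a line. The 1-month libraries of both genotypes cluster near 1 alpha per beta count and below 20 Alas2 counts, and most day 5 libraries spread above them; mutant replicate 6 of day 5 lies among them in alpha per beta counts (1.07) and below them in the share of Hba-a1 (42.5%).

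At day 5 Alas2 was lower in mutants than in Wt ears, and it was the 1 member of 5 that passed the test, where 40.9% of all tested genes were called. It averaged 0.78 ± 0.21 CPM in mutants and 1.48 ± 0.27 CPM in Wt ears (SD, n = 6 each), and the groups did not overlap. How many of all tested genes likewise did not overlap was not counted. The log2 fold change was -0.93 ± 0.34 (SE, edgeR adjusted p = 0.0302). The call rests on counts of 9 to 18 in mutant and 18 to 30 in Wt libraries, and it was lost when mutant replicate 1 (adjusted p = 0.0622), mutant replicate 4 (0.0584), Wt replicate 2 (0.0623) or Wt replicate 4 (0.0543) was left out.

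The globins of day 5 turned on mutant replicate 6. That library held 200 beta and 214 alpha counts, against 2 to 20 beta and 14 to 46 alpha counts in the other 5 mutant and 6 to 30 beta and 54 to 80 alpha counts in the Wt libraries. Its ratio of alpha to beta counts, 1.07, was nearest to those of 1 month. With all 24 libraries Hbb-bs differed between mutants and Wt ears by 1.60 ± 0.79 on the log2 scale (adjusted p = 0.109), Hbb-bt by 1.41 ± 1.08 (0.317), Hba-a2 by 1.17 ± 0.93 (0.333) and Hba-a1 by -0.70 ± 0.46 (0.238), and none passed the test. Without mutant replicate 6 the first 3 of these turned below 0, with Hbb-bs at -0.19, Hbb-bt at -0.54 and Hba-a2 at -0.93, and Hba-a1 fell by 1.25 on the log2 scale (adjusted p = 0.0296). With the twins summed and that library left out, alpha globin fell by 1.19 ± 0.43 (adjusted p = 0.0336), while beta globin differed by -0.23 ± 0.60 (adjusted p = 0.805). In the 5 other mutants alpha globin lay at 0.81 to 2.38 CPM, all below the 3.33 to 5.22 CPM of the 6 Wt ears. Replicate 6 was set aside here after the data were seen, and it was the day 5 mutant with most globin. Leaving it out by itself lowers the mutant values, so the values without it are a description and no test.

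At 1 month no member passed the test between mutants and Wt ears, where 47.1% of all tested genes were called: 0 of 5 in edgeR, 0 in DESeq2 and 0 at an unadjusted p below 0.05. All 5 means stood lower in mutants, and the libraries of the genotypes overlapped in every member. The summed globins took 0.0114% to 0.0692% of all counts in mutant and 0.0251% to 0.0806% in Wt libraries. Hbb-bs averaged 166 ± 112 CPM in mutants and 255 ± 92.0 CPM in Wt ears, a log2 fold change of -0.62 ± 0.59 (adjusted p = 0.417). Hba-a1 averaged 92.4 ± 52.6 CPM in mutants and 154 ± 60.8 CPM in Wt ears, at -0.73 ± 0.39 (adjusted p = 0.134). Alas2 averaged 5.63 ± 2.81 CPM in mutants and 7.93 ± 2.63 CPM in Wt ears, at -0.50 ± 0.28 (adjusted p = 0.16). Hbb-bt differed by -0.62 ± 0.46 (0.287) and Hba-a2 by -0.67 ± 0.66 (0.429). The genotype difference did not pass the test of a change between the times in any member (interaction, 8.77% of all tested genes called; 0 members in DESeq2, and Hbb-bs alone at an unadjusted p below 0.05), with values of -2.22 ± 0.98 for Hbb-bs (adjusted p = 0.193), -2.02 ± 1.17 for Hbb-bt (0.371), -1.85 ± 1.13 for Hba-a2 (0.414), -0.04 ± 0.63 for Hba-a1 (0.994) and 0.43 ± 0.44 for Alas2 (0.707). It passed in Hbb-bs and Hbb-bt with sample quality weights in limma voom, at -2.11 and -2.26.

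The 1-month mutants fell into 2 sets of libraries that the labels do not give. The Y-linked genes Ddx3y, Uty and Eif2s3y summed to 11 to 46.2 CPM in mutant replicates 1, 2 and 6 and to 26 CPM in Wt replicate 2, but to 77.3 to 231 CPM in the other 1-month libraries. The same 3 mutant libraries carried most globin, 431 to 742 CPM over the 4 genes, against 110 to 254 CPM in the other 3. They also stood apart by base composition: across genes, the deviation of a library from the mean of its time correlated with exon GC content at 0.16 to 0.58 in these 3 and at -0.59 to -0.51 in the other 3. Wt replicate 2 had 434 CPM of globin and a GC correlation of 0.54, and the other 5 Wt libraries had 234 to 779 CPM and -0.53 to 0.21. Without the 4 libraries low in Y-linked genes the difference between mutants and Wt ears was -1.79 for Hbb-bs, -1.74 for Hbb-bt, -1.72 for Hba-a1, -1.80 for Hba-a2 and -1.33 for Alas2 on the log2 scale. This choice was made after the data were seen and takes away the 3 mutants with most globin, which by itself makes the difference larger, so these values are a description and no test. Among the 4 libraries left out, the 3 mutants held 431 to 742 CPM of globin beside 434 CPM in the 1 Wt library, too few for a test of their own. With sample quality weights in limma voom all 5 members passed, at -1.18 for Alas2 and -1.53 to -1.71 for the globins, and without mutant replicate 1 alone Alas2 (-0.70, adjusted p = 0.0475) and Hba-a1 (-0.99, 0.0466) did. The parts of sex and of library base composition in these differences were not tested.

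**Figure D4:**
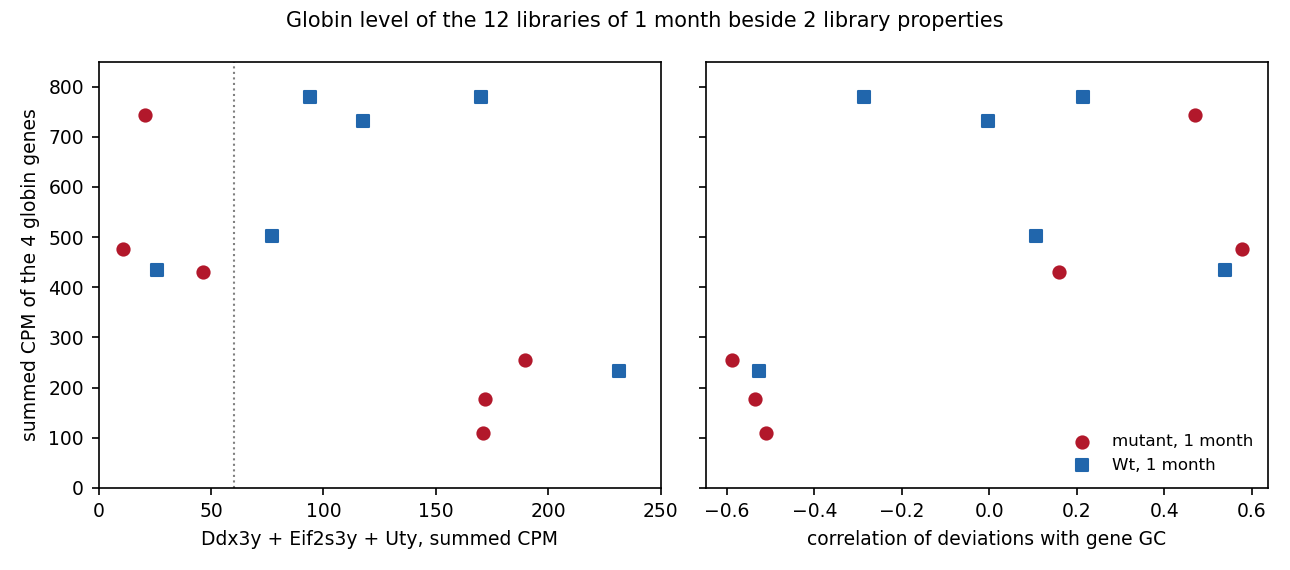
Summed CPM of the 4 globin genes in the 6 mutant (circles) and 6 Wt (squares) libraries of 1 month, against the summed CPM of the Y-linked genes Ddx3y, Eif2s3y and Uty (left, dotted line at 60 CPM) and against the correlation of a library's deviations with exon GC content across genes (right). The 3 mutant libraries left of the line lie at 431 to 742 CPM of globin, and the other 3 at 110 to 254 CPM.

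Within the groups of 1 month the members varied together, while at day 5 Alas2 followed the globins less closely. Taken as deviations of log2 CPM from the group means over 24 libraries, Hbb-bs, Hbb-bt, Hba-a1 and Hba-a2 correlated with the summed globins at 0.92, 0.89, 0.92 and 0.71, in part because they make up that sum. Alas2, which is no part of it, correlated at 0.69 over all 24 libraries, at 0.98 over the 12 of 1 month and at 0.43 over the 12 of day 5. Mutant replicate 6 of day 5 held 24.9 CPM of globin, against 1.33 to 3.46 CPM in the other day 5 mutants. It weighs on the values that include day 5, which were not computed without it. Outside the members the 10 tested genes most like the globin sum were Camk2g (0.79), Plekho1, Smtnl2, Nagpa, Mybph, Gprc5c, Flcn, Adra1d, Naglu and Scpep1 (0.76). None of the 10 is on the erythroid lists, and their exon GC content ran from 50.2% to 65.4%. The depth and composition of a library move many genes at once, so these values are a description.

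Other genes particular to red cells were scarce. Of the embryonic globins, which are made before birth, Hbb-y, Hbb-bh1 and Hbb-bh2 had no count in any library and Hba-x had 2 counts in 1 group, Wt of 1 month. Of 14 genes of the red cell membrane 8 could be tested. Slc4a1, the red cell anion exchanger band 3, named after its values were seen, had 439 counts over the mutant libraries of 1 month against 3 at day 5, a ratio of CPM of 121. Its 95% interval of 41.1 to 588 covers counting error only, while the mutant libraries of 1 month ran from 0.415 to 7.30 CPM. In Wt ears it had 71 counts at 1 month against 1 at day 5, a ratio of 52.3 (9.08 to 2090, counting error only), and the Wt libraries of 1 month ran from 0.158 to 0.862 CPM. In edgeR the rise passed in mutants (adjusted p = 4.04e-07) and in Wt ears (0.00235). No day 5 library lay above 0.0653 CPM, so Slc4a1 passed the filter only through the 1-month libraries, where it was high. These 2 calls are a description and no support for the rise of the globins. Unlike the globins it was higher in mutants than in Wt ears at 1 month, by 2.75 on the log2 scale (adjusted p = 5.22e-05). Kel, Rhag, Trim58, Tspo2 and Cldn13 had 0 to 3 counts per group.

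The membrane skeleton genes with most reads were those that muscle and other cells also make. At 1 month 1 of the 8 tested membrane genes was higher and 6 were lower in mutants, with a median log2 change of -0.85 beside 0.05 over all genes, of which 47.1% were called, and at day 5 none was higher and 4 were lower (median -0.80, all genes -0.02 and 40.9% called). Ankyrin Ank1 averaged 9.80 ± 4.69 CPM in mutants and 58.1 ± 24.1 CPM in Wt ears of 1 month (log2 -2.57 ± 0.29, adjusted p = 1.4e-07). Beta spectrin Sptb fell by 2.13 ± 0.26 (adjusted p = 6.3e-07) and Tmod1, which caps actin filaments, by 2.15 ± 0.27 (8.56e-07). Skeletal muscle actin Acta1 moved the same way, at 415 ± 290 CPM in mutants and 2071 ± 971 CPM in Wt ears (log2 -2.32 ± 0.39, adjusted p = 3.04e-05), as did the muscle globin myoglobin, Mb (-1.94 ± 0.35, 7.93e-05). The part of muscle in these falls was not tested. Bpgm, the red cell enzyme that makes 2,3-bisphosphoglycerate, rose with time by 0.86 ± 0.15 in mutants (adjusted p = 0.000129) and 0.64 ± 0.14 in Wt ears (0.00691), and it was the 1 gene called higher among the 6 tested of the 11 cytosol genes in either genotype. Over all tested genes 11.2% were called higher with time in mutants and 6.28% in Wt ears. Hemgn, a nuclear protein of blood precursors, fell in mutants, to 4 counts over 6 libraries against 78 in Wt ears at 1 month (log2 -3.96 ± 0.57, adjusted p = 3.95e-06).

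The enzymes that every cell uses to make haem were followed beside Alas2. Of 8 shared enzymes 0 were called between the times in mutants, where 19.4% of all tested genes were, and 1, Uros, the fourth enzyme of the path, was called higher in Wt ears (0.62 on the log2 scale, adjusted p = 0.0113), near the 9.09% of all tested genes. Alas1, the form of the first enzyme in other tissues, differed between the times by -0.11 ± 0.15 in mutants (adjusted p = 0.641) and 0.34 ± 0.15 in Wt ears (0.157). Between genotypes 3 of the 8 were higher and 3 lower in mutants at day 5, where 40.9% of all tested genes were called. At 1 month 2 were higher and 3 lower, where 47.1% of all tested genes were called. Coproporphyrinogen oxidase, Cpox, averaged 99.4 ± 10.5 CPM in mutants and 39.8 ± 8.18 CPM in Wt ears of 1 month (log2 1.32 ± 0.12, adjusted p = 5.52e-09). Alad, the second enzyme of the path, fell by 1.21 ± 0.18 (9.43e-06) and ferrochelatase, Fech, which puts iron into the ring, by 0.53 ± 0.08 (3.74e-06). Of 7 iron and haem transport genes 2 were higher and 2 lower in mutants at 1 month, beside 47.1% of all tested genes called, and 0 were called between the times in either genotype.

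Of the erythroid transcription factors and the erythropoietin receptor, 0 of the 5 tested were called between the times in Wt ears, too few genes to set against the 9.09% of all tested genes. In mutants Tal1 (0.60 ± 0.19 on the log2 scale, adjusted p = 0.0252) and Epor (1.89 ± 0.38, 0.000861) were higher at 1 month than at day 5, where 19.4% of all tested genes were called. Gata1, which drives globin transcription in red cell precursors, averaged 0.55 ± 0.32 CPM in mutants and 0.25 ± 0.11 CPM in Wt ears of 1 month (log2 1.12 ± 0.42, adjusted p = 0.0325), and Klf1, the factor that switches on adult beta globin, had 5 to 18 counts per group and was not tested. Nfe2, also a factor of platelet precursors, was higher in mutants at day 5 by 3.60 ± 0.62 (adjusted p = 7.1e-05) and at 1 month by 2.48 ± 0.57 (0.000856).

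Markers of other blood and vessel cells are given beside the members. Of all tested genes 47.1% were called between genotypes at 1 month and 40.9% at day 5. All 4 tested neutrophil genes of 8 were higher in mutants at both times, with summed levels of 66.4 to 104 CPM in mutants and 3.93 to 15.1 CPM in Wt ears of 1 month, and 50.2 to 283 CPM in mutants and 4.90 to 7.46 CPM in Wt ears of day 5. Of these genes Mmp8 and Retnlg averaged 0.08 to 0.28 CPM in the Wt groups and passed the filter through the mutant libraries. The count of neutrophil genes is therefore a description and cannot be set against the shares of all tested genes. Of 13 genes of blood and lymphatic endothelium 5 were higher and 0 lower in mutants at 1 month, among them Pecam1 (0.68 ± 0.16, adjusted p = 0.000874). The share called in either direction lay below that of all tested genes, of which 4416 were higher and 3723 lower. The summed level of the 13 genes was 434 to 831 CPM in mutants and 316 to 520 CPM in Wt ears. At day 5, 3 were higher and 1 lower, again a share in either direction below that of all genes, at 395 to 488 CPM in mutants and 340 to 432 CPM in Wt ears. Between the times, where 19.4% of all tested genes were called in mutants and 9.09% in Wt ears, 6 of the 13 endothelial genes were higher and 1 lower at 1 month in mutants, and 0 were called in Wt ears. From day 5 to 1 month in mutants, 3 of the 3 tested B cell genes rose, while 3 of the 4 tested neutrophil genes and 2 of the 5 tested platelet genes fell. In Wt ears 0 genes of these 3 lists were called between the times. Of the 7 listed B cell genes 4 could not be tested. Cd79b and Cd22 stood at 0.83 CPM or more in all mutants of 1 month, against means of at most 0.57 CPM in each other group. The filter thus favoured them through the group where they were high, and the count of B cell genes is a description and no support. The part of these cells in the members' values was not tested.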

How the data were processed

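PolyA RNA of 24 whole-ear samples was sequenced as single-end reads, per the labels' protocols. The authors deposited expected counts for each Ensembl gene, made with RSEM 1.3.0 and STAR 2.5.2 on GRCm38, per the submitters' processing notes, where DESeq2 1.14.1 is also named. Which annotation they used is not given in the sources here. Of the values for 51912 genes 6.706% were not whole, and these were rounded. Symbols, coordinates and transcript lengths came from GENCODE M21 (GRCm38), which held 51719 of the identifiers. CPM per kb uses the longest protein-coding transcript. Promoters came from RefSeq (GRCm38.p6), which matched all 5 members.

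The tests used edgeR 4.0.16 in R 4.3.3: filterByExpr by group (17287 genes), TMM factors, 1 coefficient per group over 24 libraries, robust quasi-likelihood F tests (two-sided), Benjamini-Hochberg adjustment over all tested genes, and a threshold of 0.05. Standard errors were taken as the absolute log2 fold change over the root of F. Some listed genes near no read in a group, such as Nfe2 and Spic, passed the filter through the groups where they were high. Their calls in that direction are a description. Correlations used log2 CPM with a prior count of 2. Total counts ran from 15661515 to 23904976 per library. No 2 libraries of a group were alike within sampling noise (smallest chi-square per degree of freedom 4.86). Alternatives are given in the closing section.

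The members and gene lists were chosen with earlier results of these data known. Of each list beside the members, the text names up to 4 genes with the smallest adjusted p between genotypes and those with no count in a group. Slc4a1, Slc40a1, Uros, Klf1 and Rpl12 were named after their values were seen. Ahsp was not analysed here, and 2 listed genes are not reported here.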

Additional observations from a re-analysis of the deposited data

Results flagged for a closer look

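In each group of 6 libraries a value was singled out when the gap to its nearest neighbour took more than 0.625 of the group's range. Of 212 such group values 25 were singled out, where chance gives about 1 in 20. No cause was tested for any of them.

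Among the members, mutant replicate 6 of day 5 was highest and apart in all 4 globins, with Hbb-bs at 10.6 CPM (next 0.972), Hbb-bt at 1.38 CPM (next 0.116), Hba-a1 at 5.47 CPM (next 1.72) and Hba-a2 at 7.4 CPM (next 0.702). It was not apart in Alas2. Wt replicate 4 of day 5 was lowest in Hbb-bt at 0 CPM (next 0.116), a matter of 2 counts. Mutant replicate 1 of day 5 had most alpha per beta counts, 12.5 (next 2.71), on 2 beta counts.

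In the other lists the mutant libraries of 1 month that stood apart were replicate 1 in Tal1 (11.8 CPM), Epor (2.29 CPM) and Pf4 (65.2 CPM), replicate 2 in Cpox (120 CPM), replicate 5 in Cxcr2 (45.8 CPM) and replicate 6 in Add2 (2.04 CPM). The Wt libraries of 1 month were replicate 1 in Hemgn (0.86 CPM) and Gp1ba (0.508 CPM), replicate 4 in Csf3r (6.05 CPM), Mmp8 (0.436 CPM) and Retnlg (0.872 CPM), and replicate 5 in Pf4 (71.4 CPM), Itga2b (7.92 CPM) and Lyve1 (53.8 CPM). At day 5 they were mutant replicates 1 in Hemgn (0.653 CPM), 3 in Plin1 (34.9 CPM) and 4 in Cd79b (0.432 CPM), and Wt replicates 3 in Alas1 (60 CPM) and 5 in Sptb (59.2 CPM). All of these were the highest of their group.

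The difference between mutants and Wt ears changed from day 5 to 1 month, by the interaction term of the edgeR fit, in 12 of the genes named from the lists and in no member. The change in the log2 difference was -1.312 in Ank1, -1.187 in Sptb and 1.725 in Add2 of the red cell membrane, -3.533 in Ppbp of platelets, -2.499 in Hp and -1.38 in Cd163 of haemoglobin clearance, 0.964 in Vwf and -1.445 in Lyve1 of endothelium, 2.531 in Cd79b and 1.916 in Ighm of B cells, and -3.451 in Mmp8 and -4.375 in Retnlg of neutrophils. For all 12 the adjusted p was below 0.05 over all tested genes.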

How the results depend on the processing

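The rise of the 5 members from day 5 to 1 month was called under all 24 alternatives in Wt ears and all 25 in mutants, with log2 values of 2.26 to 2.58 for Alas2, 5.39 to 6.12 for Hba-a1, 6.12 to 7.86 for Hba-a2, 8.23 to 8.79 for Hbb-bs and 8.32 to 8.77 for Hbb-bt in Wt ears. In mutants they were 2.05 to 3.05, 4.56 to 6.61, 4.73 to 7.84, 5.10 to 8.05 and 5.51 to 8.50 in the same order. The genotype comparisons were less stable, and the cause was not tested. With sample quality weights (limma voom, limma 3.58.1) 5 members were called at 1 month and 2 in the interaction, where Alas2 turned to -0.21. Hba-a2 turned to -0.70 at day 5 under these weights, and 11699 genes were called at day 5, 8217 in the interaction, 5886 over time in mutants and 8227 in Wt ears. Without the 1-month libraries low in Y-linked genes 4 members were called at 1 month and 2 in the interaction, where Alas2 turned to -0.42, and 4630 genes were called in the interaction and 3168 over time in Wt ears; since this takes away the 3 mutants with most globin, its calls of members are no support. DESeq2 1.42.0 called 2458 genes over time in Wt ears, and a fit to only the libraries compared called 2109 over time in mutants; there Hbb-bt failed the filter at day 5 and has no value.

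With copies summed, alpha globin stood at -0.17 at day 5, against 1.17 for Hba-a2 alone. With copies summed and mutant replicate 6 of day 5 left out, alpha globin was at -1.19 and beta globin at -0.23 at day 5, alpha globin at 0.49 in the interaction, and 3 members were called at day 5, counting both alpha genes through their sum. Since this takes away the day 5 mutant with most globin, its calls of members are no support. Leaving out 1 library at a time gave 0 to 2 called members at day 5 and 0 to 2 at 1 month, and 937 to 3026 genes over time in Wt ears, the lowest without Wt replicate 5 and the highest without Wt replicate 1 of 1 month. It gave -0.93 to 1.43 for Hba-a2, -0.19 to 1.99 for Hbb-bs and -0.54 to 1.67 for Hbb-bt at day 5, and -0.29 to 0.51 for Hba-a1 and -2.20 to 0.25 for Hba-a2 in the interaction.

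Libraries that share a replicate number correlated at -0.73 to 0.39 in their deviations, and 0 of the mutants of day 5 and 1 of 1 month correlated best with the Wt library of its number. No pairing by number was seen in this way. The correlations cannot exclude one, since other differences between libraries enter them, and the labels do not say whether the numbers pair the samples. With the replicate number as a block 1019 genes were called over time in Wt ears, against 1572 without it, and Hba-a1 turned to 0.047 in the interaction, against -0.037. At day 5 the 4 globins together rest on 23 to 414 counts per mutant and 69 to 109 per Wt library, which limits what could be detected.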

Other observations

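Of 10 genes that clear haem and haemoglobin or export iron, 6 were higher and 1 lower in mutants than in Wt ears at day 5, and 4 were higher and 0 lower at 1 month. Of all tested genes 40.9% were called at day 5 and 47.1% at 1 month, so the share called in either direction at 1 month is near that of all genes. At 1 month 4416 of all tested genes were higher in mutants and 3723 lower. Haem oxygenase 1, Hmox1, averaged 93.2 ± 36.5 CPM in mutants and 42.7 ± 2.63 CPM in Wt ears of day 5 (SD, n = 6 each; edgeR log2 1.13 ± 0.22, adjusted p = 0.000279), and 63.2 ± 23.2 CPM in mutants and 38.1 ± 4.20 CPM in Wt ears of 1 month (0.73 ± 0.22, 0.00845). Haptoglobin, Hp, which binds free haemoglobin, averaged 439 ± 103 CPM in mutants and 91.7 ± 30.3 CPM in Wt ears of day 5 (2.26 ± 0.31, 4.16e-06), and its receptor Cd163 averaged 232 ± 122 CPM in mutants and 53.4 ± 4.13 CPM in Wt ears (2.12 ± 0.31, 9.69e-06). At 1 month Hp was not called (-0.24 ± 0.30, 0.538), and Cd163 was higher by 0.74 ± 0.30 (0.046). These genes have other roles in macrophages and in the response to inflammation. Spic, a factor of iron-recycling macrophages, was higher in mutants at 1 month (1.72 ± 0.32, adjusted p = 8.61e-05). The 1 gene called lower at day 5 was Slc40a1, the iron export gene of the list, at 19.3 ± 4.46 CPM in mutants and 52.3 ± 3.44 CPM in Wt ears (-1.44 ± 0.29, 0.000322).

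Of the platelet and megakaryocyte list 5 of 12 genes could be tested, and 3 were higher in mutants at day 5 and 2 at 1 month. The shares of all tested genes called were 40.9% at day 5 and 47.1% at 1 month. The platelet chemokine genes Pf4 and Ppbp were among those of day 5, Pf4 at 57.3 ± 18.9 CPM in mutants and 28.0 ± 3.93 CPM in Wt ears and Ppbp at 2.76 ± 2.30 CPM in mutants and 0.27 ± 0.19 CPM in Wt ears. Ppbp averaged at most 0.43 CPM in each group but the day 5 mutants, so the filter favoured it through the group where it was high. The 3 tested B cell genes did not move alike. Ighm, the heavy chain of IgM, was lower in mutants at day 5 (-1.26 ± 0.18, adjusted p = 6.39e-06) and higher at 1 month (0.66 ± 0.17, 0.00289). Cd22 was higher in mutants at day 5 (2.725 ± 0.794, 0.00803) and at 1 month (4.165 ± 0.658, 1.4e-05), on 8 and 15 counts in the Wt groups. Cd79b was not called at day 5 (-0.78 ± 0.44, 0.165) and was higher at 1 month (1.75 ± 0.36, 0.000311).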
